A study of Mus musculus with 10 samples.

Results

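Expression of the glucocorticoid receptor gene and of 9 genes of its pathway was examined in lymphatic endothelial cells (LECs) sorted from the meninges of stressed and non-stressed mice. The 10 members were the rows of the count table with the symbols Nr3c1, Nr3c2, Hsd11b1, Fkbp5, Tsc22d3, Per1, Sgk1, Zbtb16, Dusp1 and Klf9, out of 55401 rows. The test covered the 14815 genes that exceeded 5 counts in 3 or more replicates, and all 10 members were among them. Each group held 5 replicates, and each replicate was a pool of cells from 3 to 4 female mice of strain C57BL/6, 3 months old (C57BL/6J in the study's methods). The naive group was not stressed. The SCVS group had gone through sub-chronic variable stress, in which foot shock, tail suspension and restraint alternated over 6 days. Both groups were digested in the presence of actinomycin D, an inhibitor of transcription, and sorted as viable CD45-CD31+podoplanin+ cells, and the RNA of the few cells recovered was amplified before sequencing. The comparison asks whether the genes that answer to stress hormone stood at another level in these cells after SCVS.

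Corticosterone, the main glucocorticoid of mice, rises in stress and binds both corticosteroid receptors, the glucocorticoid receptor encoded by Nr3c1 and the mineralocorticoid receptor encoded by Nr3c2. The empty glucocorticoid receptor is held in the cytoplasm by heat shock proteins and their partners, and with hormone bound it enters the nucleus and acts on transcription at DNA elements. Hsd11b1 encodes 11β-hydroxysteroid dehydrogenase type 1, which turns inactive 11-dehydrocorticosterone back into corticosterone inside the cell. The remaining 7 members are genes that glucocorticoids are known to induce in many tissues.

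The libraries held between 9984743 and 14094155 counts each, so that 3 counts, taken as the floor of detection for counting error only, were worth between 0.213 and 0.3005 CPM, counts divided by the library total in units of 1e+06. Naive replicate 5 stood apart. The summed CPM of 6 pan-endothelial markers was 429 there and 3455 to 6505 in the other 9 replicates. That of 7 blood endothelial markers was 313 against 5050 to 10258. That of 6 neural and glial markers was highest there, 3093 against 76.8 to 1769. The lymphatic label was only partly borne out, since 7 lymphatic markers summed to between 60.8 and 3074 CPM and lay below the blood endothelial sum in 10 of 10 replicates. In naive replicate 1, Prox1 and Pdpn were at 0 counts and Lyve1 at 2. Markers of other cells differed between the groups in their fitted values, with 6 of 6 mural markers negative (median log2 fold change -1.99), 6 of 6 leukocyte and myeloid markers positive (2.81), 4 of 5 tested fibroblast markers negative (-2.69) and 3 of 3 tested erythroid markers positive (5.11). Among the other lists, 6 of 7 lymphatic and 4 of 6 pan-endothelial markers were positive, with medians of 0.91 and 0.02. Of the blood endothelial markers 2 of 7 and of the neural and glial markers 1 of 6 were positive, with medians of -0.18 and -0.19. Without naive replicate 5 these medians were 0.82, -0.28, -0.50 and 0.76 over the markers still tested, in the same order. In edgeR, no marker passed an adjusted p of 0.1, and in DESeq2 Acta2 (adjusted p = 0.06, lower in SCVS) and Ptprc (adjusted p = 0.0801, higher in SCVS) did.

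No member passed the threshold between SCVS and naive replicates. In edgeR's quasi-likelihood test, 0 of 10 members and 0 of 14815 genes (0.0%) had an adjusted p under 0.1, and the smallest adjusted p of any gene was 0.964. At an unadjusted p under 0.05, edgeR gave 0 members against 460 genes (3.1%). DESeq2 called 114 genes (0.769%), 74 of them higher in SCVS, and 0 members, while limma called 3 genes and 0 members. The groups overlapped in CPM for 10 of 10 members, and 93 of all tested genes (0.628%) had groups that did not overlap. The biological coefficient of variation, the spread between replicates beyond counting error, was 1.59 over all genes, and the largest standard errors among the members exceeded 2 on the log2 scale.

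**Figure D1:**
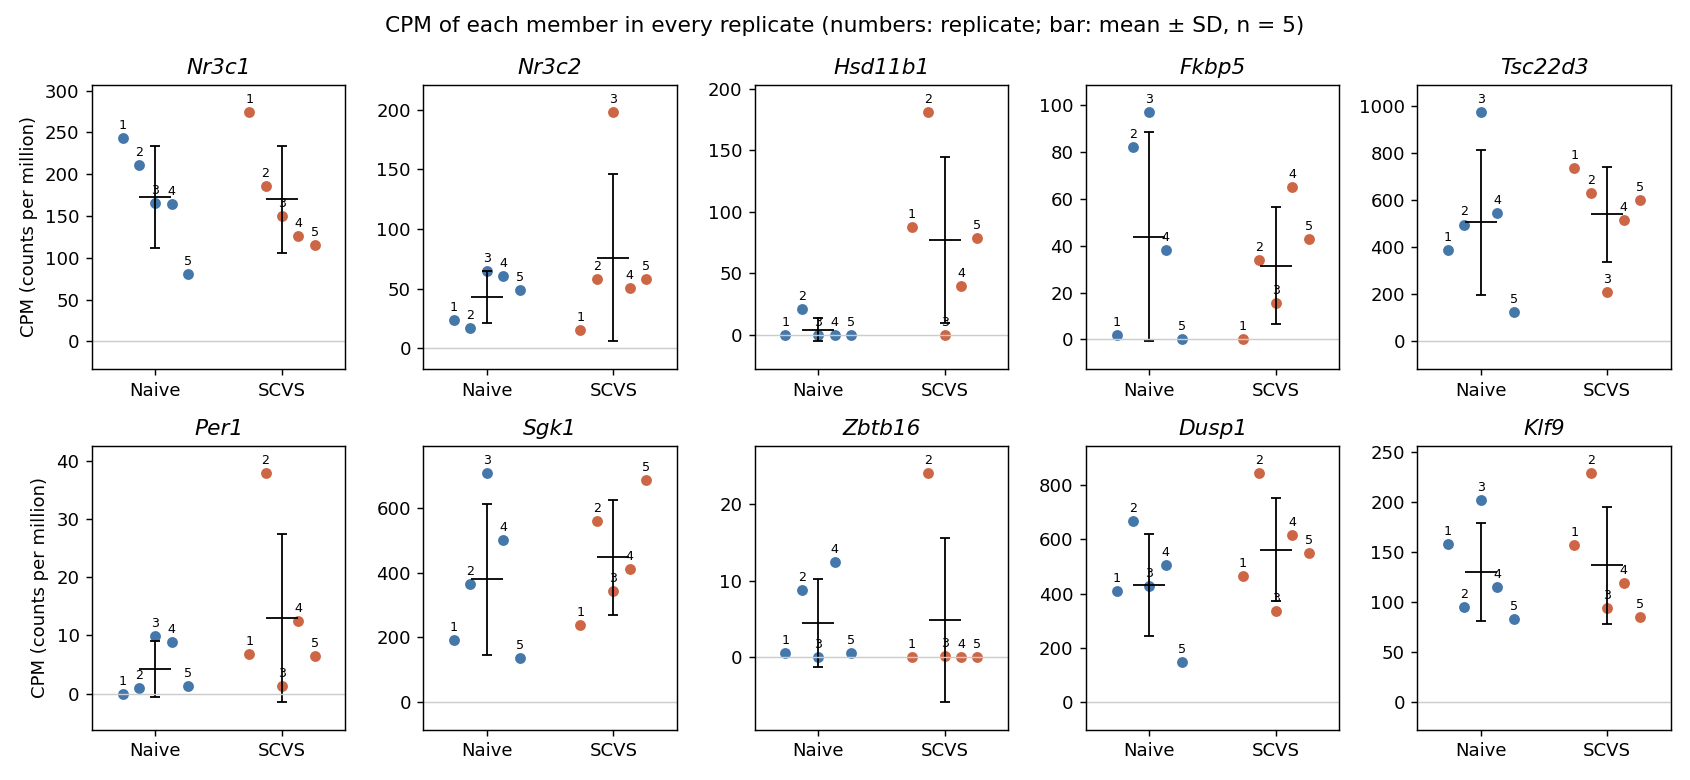
CPM (linear vertical axes) of each of the 10 members, with 1 point per replicate numbered as in its label, naive on the left and SCVS on the right of each panel; black bars give the mean ± SD of 5 replicates. The groups overlap in all 10 panels, and Hsd11b1 is the one panel in which 4 SCVS points lie above every naive point.

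Nr3c1, the glucocorticoid receptor gene on chromosome 18, was read in all 10 replicates and had nearly equal group means. Naive replicates 1 to 5 stood at 243, 211, 165, 164 and 81.1 CPM, against 274, 185, 150.3, 126 and 115 CPM for SCVS replicates 1 to 5, the order kept for every member below. The 2 groups covered nearly the same span, with SCVS replicate 1 highest and naive replicate 5 lowest. The means were 173 ± 61.2 and 170.2 ± 64.0 CPM (SD, n = 5 each), the edgeR log2 fold change of SCVS over naive was -0.08 ± 0.37 (SE), and its adjusted p was 1.0. Without naive replicate 5 the fold change was -0.25 ± 0.32. Among the members Nr3c1 varied least, with a coefficient of variation of 34.4% over the 10 replicates against a median of 43.3% for the 1966 tested genes with a mean of at least 100 CPM.

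Nr3c2, the mineralocorticoid receptor gene (mm9, chromosome 8, 79423341 to 79768911, plus strand), was lower and more variable. Its CPM were 23.6, 16.9, 64.7, 60.7 and 49.1 in the naive replicates and 15.3, 58.2, 198, 50.7 and 58.5 in the SCVS replicates. SCVS replicate 3 was more than 3 times any other replicate, and the remaining 4 SCVS replicates lay within or just under the naive range. The fitted log2 fold change was 0.81 ± 0.69 (edgeR adjusted p = 1.0). The genes Gm10649 and SNORA17 on the opposite strand and U2 on the same strand, lie within Nr3c2, and whether the counting used strand is not given in the sources used here.

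Set side by side per kilobase of exon, the glucocorticoid receptor mRNA exceeded the mineralocorticoid receptor mRNA in 9 of 10 replicates. The ratio of Nr3c1 to Nr3c2 in CPM per kilobase was 8.99, 10.9, 2.23, 2.36 and 1.44 in naive replicates 1 to 5. It was 15.7, 2.78, 0.663, 2.17 and 1.72 in SCVS replicates 1 to 5. The ratio was high where Nr3c2 was low (naive replicates 1 and 2, SCVS replicate 1), and the one replicate below 1 was SCVS replicate 3 with its high Nr3c2. As a description over 10 replicates and 9975 genes with a mean of at least 10 CPM, the genes whose log2(CPM + 1) ran most like that of Nr3c1 were Chmp2a (Pearson r = 0.978, Spearman rho = 0.988), Rps6 (0.945 and 0.976) and Myo10 (0.940 and 0.964). With the 2 replicates farthest from the median of Nr3c1 left out, r was 0.969, 0.931 and 0.831. These genes share their libraries, and the highest of so many correlations is high by selection.

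**Figure D2:**
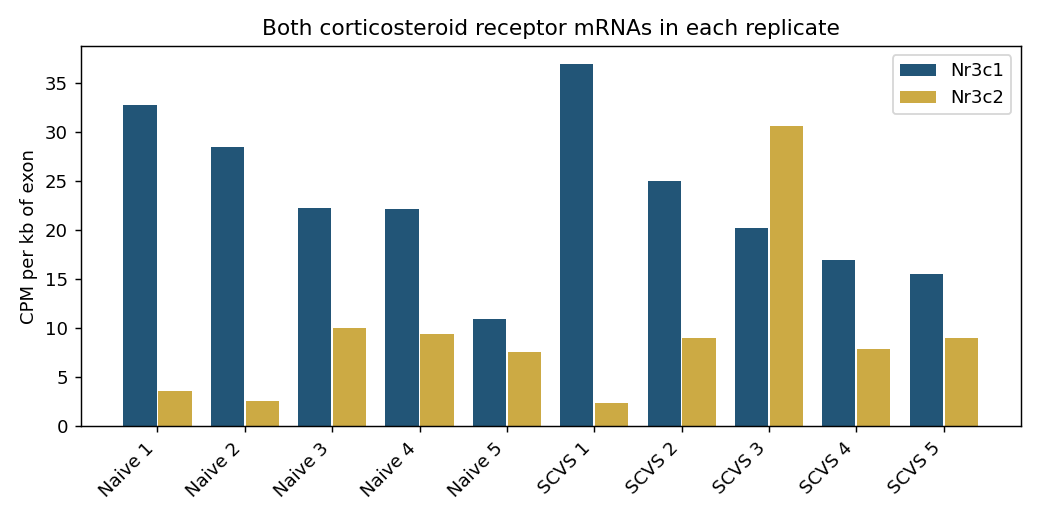
Nr3c1 and Nr3c2 in each of the 10 replicates, in CPM per kilobase of exon (linear vertical axis from 0); each bar is 1 replicate. Nr3c1 is the taller bar everywhere but in SCVS replicate 3, where Nr3c2 reached 30.6.

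Hsd11b1, the enzyme that regenerates corticosterone (mm9, chromosome 1, 195047824 to 195090248, minus strand), was read in most SCVS replicates and hardly in naive ones. The naive replicates held 1, 271, 0, 0 and 0 raw counts and the SCVS replicates 1240, 2201, 0, 530 and 785, or 0.096, 21.2, 0, 0 and 0 CPM against 88.0, 181, 0, 40.0 and 78.6 CPM. Thus 4 of 5 SCVS replicates lay above the highest naive replicate, while SCVS replicate 3 had no count at all and kept the groups overlapping. At least 4 SCVS replicates above every naive replicate were found for 1 of 10 members and for 337 of all tested genes (2.27%).

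The mean of Hsd11b1 was 4.26 ± 9.48 CPM in naive and 77.5 ± 67.4 CPM in SCVS replicates (SD, n = 5 each), an 18.2-fold difference. The two-sided exact permutation test over all splits of 5 against 5 gave p = 0.0476, where 0.00794 is the smallest p possible. With adjustment over all tested genes the exact permutation p was 1.0. Because no gene can fall under 0.00794 before adjustment, the adjusted value depends on how many other genes reach such a p. It therefore could not decide on Hsd11b1 by itself. An unadjusted p under 0.05 was found for 561 genes (3.79%) and 1 of the 10 members. The edgeR log2 fold change was 4.12 ± 2.26 (SE) with an adjusted p of 1.0, and DESeq2 gave 4.17 with an adjusted p of 0.9997. The difference thus passed the threshold in neither edgeR nor DESeq2 once adjusted over all tested genes.

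Single replicates decided how Hsd11b1 was called. Without naive replicate 2 the naive libraries held at most 1 count, and the SCVS mean was at least 327-fold higher than the mean of their floors of 3 counts per library. In that setting DESeq2, run after the data had been seen, called Hsd11b1 with an adjusted p of 1.84e-06, as 1 of 129 genes called among 14369 (0.898%), while edgeR gave an adjusted p of 1.0 and the exact permutation p was 0.0873. Without SCVS replicate 3 the groups of Hsd11b1 did not overlap, as for 197 of 14815 genes (1.33%), and its exact permutation p was 0.00794, where 661 genes (4.46%) were under 0.05. Without naive replicate 5 the edgeR log2 fold change was 3.80 ± 2.28. The exact permutation p was 0.0873 whichever naive replicate was left out, also those with 0 counts. It was at most 0.0476 whichever SCVS replicate was left out. The value of 0.0873 thus went with the smaller naive group and not with a particular naive replicate. Without any filter on low counts the edgeR adjusted p was 0.299, the lowest among the alternative settings of edgeR.

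Markers of other cells are given beside Hsd11b1 in the same replicate order. The summed CPM of the fibroblast markers was 725, 1318, 723, 424 and 50.9 in naive and 18.5, 82.5, 157, 141 and 1505 in SCVS libraries. That of the leukocyte and myeloid markers was 0.576, 142, 19.5, 549 and 49.2 in naive and 197, 133, 765, 3890 and 218 in SCVS libraries. That of the mural markers was 7681, 1218, 770.0, 3698 and 5078 in naive and 1142, 5906, 3265, 3073 and 413 in SCVS libraries. Naive replicate 2, the one naive library with more than 1 count of Hsd11b1, had the highest fibroblast sum of its group. SCVS replicate 2, with the most Hsd11b1, had the highest mural and the lowest leukocyte sum of its group. Other libraries ran otherwise. SCVS replicate 1, with 88.0 CPM of Hsd11b1, had the lowest fibroblast sum of its group. SCVS replicate 5, with 78.6 CPM, had the lowest mural sum of its group, and naive replicate 1, with 1 count, the highest mural sum. The part of these cells in the level of Hsd11b1 was not tested. In such bulk samples a change in the number of cells of a type and a change of RNA per cell cannot be told apart. The genes 4930570N18Rik and 1600010F14Rik overlap Hsd11b1 on the opposite strand, so that some of its reads could belong to them.

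The partners of Hsd11b1 in steroid handling gave little to compare. Hsd11b2, which inactivates corticosterone, had 0 counts in all 10 replicates, and Serpina6, the corticosteroid-binding globulin, never exceeded the floor. H6pd, which supplies the NADPH that Hsd11b1 uses, averaged 11.7 ± 13.99 CPM in naive and 14.3 ± 26.4 CPM in SCVS replicates, with an edgeR log2 fold change of 0.33 ± 1.59. Abcb1a, an efflux pump of brain endothelium that exports steroids among many compounds, averaged 294 ± 232 CPM in naive and 148 ± 92.4 CPM in SCVS replicates (log2 fold change -1.02 ± 0.98). Without naive replicate 5 the log2 fold change of Abcb1a was -1.34 ± 0.52 (edgeR adjusted p = 0.934). Of the 5 genes of this list 3 were tested, 2 had a positive and 1 a negative fold change, and none was called.

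The response genes are taken in turn, beginning with Fkbp5, whose product acts on the receptor itself. Fkbp5 encodes the co-chaperone FKBP51, which lowers the receptor's affinity for hormone and is itself induced by it (mm9, chromosome 17, 28536040 to 28654469, minus strand). Its CPM were 2.02, 82.0, 96.9, 37.9 and 0 in the naive replicates and 0.142, 33.7, 15.3, 65.2 and 42.8 in the SCVS replicates. Both groups thus ran from no or almost no reads to over 60 CPM, and the naive group held both the highest value and the only 0. The fitted log2 fold change was -0.50 ± 1.53 (edgeR adjusted p = 1.0), and on a log2(CPM + 1) scale the difference in means had the opposite sign, 0.195. The gene 7SK overlaps it on the opposite strand. Fkbp4, whose product competes with FKBP51 for the receptor and which was singled out after its values were seen, had more counts than Fkbp5 in 10 of 10 replicates, with 146 ± 28.0 CPM in naive and 202 ± 51.0 CPM in SCVS replicates (log2 fold change 0.40 ± 0.29, edgeR adjusted p = 1.0).

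Tsc22d3 encodes GILZ, a leucine zipper protein that restrains NF-κB and AP-1 and is among the most widely induced glucocorticoid targets (mm9, chromosome X, 137074067 to 137135198, minus strand). Its CPM were 389.9, 496, 972, 544 and 123 in the naive replicates and 735, 631, 209.7, 516 and 602 in the SCVS replicates. All 5 SCVS values lay inside the naive range. The log2 fold change was 0.04 ± 0.48 with all replicates and -0.21 ± 0.37 without naive replicate 5 (edgeR adjusted p = 1.0 in both).

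Sgk1 encodes a kinase that keeps sodium channels at the cell surface and is induced through both corticosteroid receptors (mm9, chromosome 10, 21601990 to 21719709, plus strand). Its CPM were 190.5, 365, 707, 499 and 137 in the naive replicates and 237, 559, 344, 411 and 686 in the SCVS replicates. All SCVS values again lay inside the naive range, between naive replicates 1 and 3. The log2 fold change was 0.20 ± 0.46, and -0.01 ± 0.41 without naive replicate 5 (edgeR adjusted p = 1.0 in both).

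Dusp1 encodes a phosphatase that switches off MAP kinases and carries much of the anti-inflammatory action of glucocorticoids (mm9, chromosome 17, 26642535 to 26645464, minus strand). Its CPM were 409.9, 668, 428, 506 and 147 in the naive replicates and 466, 844, 334, 618 and 549.7 in the SCVS replicates. One SCVS replicate lay above and none below the naive range. The log2 fold change was 0.33 ± 0.37, and 0.11 ± 0.27 without naive replicate 5 (edgeR adjusted p = 1.0 in both).

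Klf9, a Krüppel-like transcription factor that glucocorticoids induce in brain and skin (mm9, chromosome 19, 23215716 to 23241401, plus strand), had nearly equal means. Its CPM were 158, 94.7, 202, 115 and 83.0 in the naive replicates and 157, 229, 94.1, 119 and 84.7 in the SCVS replicates. The means were 131 ± 49.0 and 137 ± 58.6 CPM (SD, n = 5 each), and the log2 fold change was -0.01 ± 0.38 (edgeR adjusted p = 1.0). Mir1192 lies within it on the same strand. Its coefficient of variation, 38.2%, was close to that of Dusp1, 38.5%.

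Per1 and Zbtb16 had the lowest mean levels of the members. Per1, a repressor of the circadian clock that glucocorticoids also induce directly (mm9, chromosome 11, 68908719 to 68923462, plus strand), had CPM of 0, 0.940, 9.87, 8.91 and 1.35 in the naive replicates and 6.88, 37.9, 1.30, 12.5 and 6.41 in the SCVS replicates. SCVS replicates 2 and 4 lay above the naive range and 3 inside it, and the log2 fold change was 1.51 ± 1.62 (edgeR adjusted p = 1.0, exact permutation p = 0.214). Zbtb16, the transcriptional repressor PLZF (mm9, chromosome 9, 48462416 to 48644050, minus strand), had raw counts of 6, 112, 1, 168 and 7 in the naive replicates and 0, 292, 3, 0 and 1 in the SCVS replicates. It passed the floor of 3 counts in 4 naive replicates and 1 SCVS replicate, and that replicate held the highest value of all. Its log2 fold change was -0.04 ± 2.19 with all replicates (edgeR adjusted p = 1.0). Without SCVS replicate 2 every SCVS library was at or under the floor, and the naive mean of 4.46 CPM was at least 18.2-fold higher than the mean of those floors (edgeR adjusted p = 1.0).

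The members differed between single libraries within each group. Naive replicate 5, the library with few endothelial markers, was lowest, or tied at 0, for 7 of 10 members, and its members summed to 622 CPM against 1347 to 2783 CPM in the other 9 replicates. SCVS replicate 2 was highest for 5 members (Hsd11b1, Per1, Zbtb16, Dusp1 and Klf9), and naive replicate 3 for Fkbp5, Tsc22d3 and Sgk1. The part of endothelial content in these values was not tested. Of the 10 members 6 had a positive log2 fold change, with a median of 0.12, beside 48.2% of all tested genes, with a median of -0.03. Without naive replicate 5 the members' median was -0.08 and that of all genes 0.02.

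**Figure D3:**
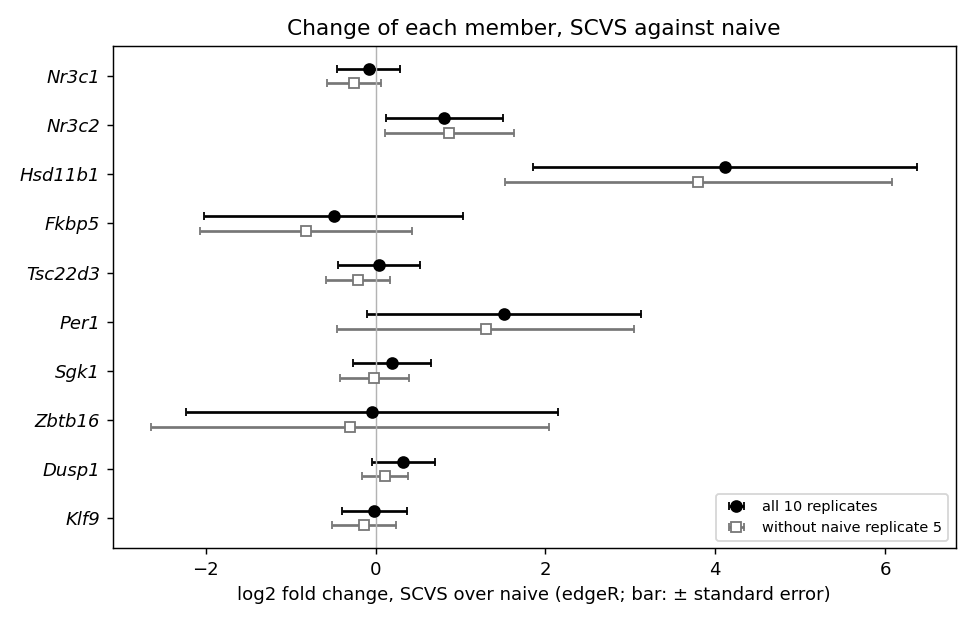
Log2 fold change of SCVS over naive for each member in edgeR (horizontal axis, linear in log2 units), with bars of ± 1 standard error; filled circles use all 10 replicates and open squares leave out naive replicate 5. The bars of Hsd11b1, Fkbp5, Per1 and Zbtb16 are wide, and Tsc22d3 and Sgk1 move to the other side of 0 when naive replicate 5 is left out.

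Per kilobase of exon the members spanned a wide range of levels. Over all 10 replicates the mean in CPM per kilobase was 184 ± 70.9 (SD) for Dusp1, 120.2 ± 56.5 for Tsc22d3, 84.3 ± 40.4 for Sgk1, 40.9 ± 15.6 for Klf9 and 23.1 ± 7.95 for Nr3c1. Lower means were those of Nr3c2 at 9.20 ± 8.04, Fkbp5 at 5.95 ± 5.50, Per1 at 1.53 ± 1.98 and Zbtb16 at 0.915 ± 1.59. The place of Hsd11b1 depended on the group, with a mean of 1.57 ± 3.50 CPM per kilobase in naive replicates, under Nr3c2 and Fkbp5, and 28.6 ± 24.9 in SCVS replicates, next to Nr3c1 at 22.9 ± 8.62 (SD, n = 5 each). Klf9 was above Nr3c1 in 10 of 10 replicates, Dusp1 above Tsc22d3 and Sgk1 above Klf9 in 9, and Tsc22d3 above Sgk1 in 8. From Nr3c2 down, neighbors did not differ beyond their spread, and Nr3c2, Fkbp5 and Per1 each exceeded the next lower gene in 7 of 10 replicates. The 6 members with over 3 counts in every replicate (Nr3c1, Nr3c2, Tsc22d3, Sgk1, Dusp1 and Klf9) had coefficients of variation of 34.4% to 87.4%, while Fkbp5, Per1, Hsd11b1 and Zbtb16 had 92.4%, 129.6%, 145.8% and 173%.

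The promoter letters of the response genes are shown because the receptor acts on such genes through DNA elements. RefSeq windows from 250 bases before to 50 bases after each start (build GRCm38.p6) were at hand for 8 members in 16 windows, and not for Nr3c1 and Zbtb16. Both strands were searched for the receptor half-site AGAACA, the palindrome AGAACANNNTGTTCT with at most 2 mismatches (which holds the half-site), the cAMP response element TGACGTCA and the E-box CACGTG, the element of the clock activators. The stretches below run 5′ to 3′ on the strand of the gene with the matched letters in capitals. The first holds the palindrome with no mismatch, at chr10:21993684-21993732 (plus strand), the second a half-site on the other strand at chrX:140600685-140600724 (minus strand), the third the cAMP response element at chr17:26508591-26508632 (minus strand) and the fourth an E-box at chr11:69098766-69098805 (plus strand).
Sgk1: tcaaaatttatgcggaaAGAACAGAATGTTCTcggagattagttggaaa
Tsc22d3: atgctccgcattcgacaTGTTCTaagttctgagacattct
Dusp1: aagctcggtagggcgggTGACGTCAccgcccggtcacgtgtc
Per1: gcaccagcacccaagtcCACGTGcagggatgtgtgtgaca

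Sgk1 was the one member with the palindrome, which 1.84% of all 32851 windows and 2.1% of all 27025 genes held. Its matched letters begin 189 bases before that start. The half-site was found in Sgk1 and Tsc22d3 and in 19% of all windows (21.3% of genes). The cAMP response element was found in Dusp1 and in 1.79% of windows (2.03% of genes). The E-box was found in Fkbp5, Per1, Sgk1 and Dusp1 and in 7.15% of windows (8.09% of genes). Sgk1 and Tsc22d3 have several starts and so several chances of a match. The 2 members with half-sites stood at 84.3 and 120.2 CPM per kilobase, and neither passed the threshold between the groups. Among the other members with a window, Dusp1 stood higher still, at 184 CPM per kilobase, and the rest lower.

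The machinery around the receptor showed no called difference. Of 12 receptor chaperones 6 had a positive and 6 a negative fold change, with a median of -0.02 on the log2 scale and none called. Hsp90ab1, the constitutive HSP90 that holds the receptor ready for hormone, averaged 1095 ± 230.4 CPM in naive and 1009.6 ± 343 CPM in SCVS replicates (log2 fold change -0.19 ± 0.26). Hspa8, the constitutive HSP70, averaged 926 ± 177 and 1008 ± 253 CPM (0.09 ± 0.26). Of 11 coregulators 8 were positive and 3 negative, with a median of 0.19. The corepressor gene Ncor1 averaged 205 ± 97.5 and 251.8 ± 59.1 CPM (0.26 ± 0.37), and the coactivator gene Ncoa3 119 ± 97.4 and 77.6 ± 38.5 CPM (-0.69 ± 0.56). None of these differences passed edgeR's or DESeq2's threshold.

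Other targets of the receptors did not pass the threshold either. Of 24 further glucocorticoid-induced genes 13 were positive and 11 negative, with a median of 0.24. Txnip, an inhibitor of thioredoxin and glucose uptake, averaged 464 ± 259 CPM in naive and 799.8 ± 232 CPM in SCVS replicates (log2 fold change 0.73 ± 0.40, edgeR adjusted p = 1.0). Nfkbia, the inhibitor of NF-κB, averaged 484 ± 250.2 and 713 ± 307 CPM (0.52 ± 0.50). Of 5 mineralocorticoid receptor targets 4 were tested, 2 positive and 2 negative, with a median of 0.23. Among them Nedd4l, the ubiquitin ligase of the sodium channel, averaged 11.8 ± 9.03 CPM in naive and 22.0 ± 11.5 CPM in SCVS replicates (0.84 ± 1.06).

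Among 10 inflammatory genes that glucocorticoids repress, 4 were tested, 3 positive and 1 negative. Their median was 1.81, but the standard errors of these fold changes ran up to 3.17 on the log2 scale. Vcam1, an adhesion molecule of activated endothelium, was the negative one. It stood at 0.150 CPM in naive replicate 5, the library with few endothelial markers, while the other 4 naive replicates lay between 149.6 and 321 CPM and the 5 SCVS replicates between 24.3 and 82.3 CPM. With that library set aside its groups did not overlap, as for 197 of 14815 genes (1.33%) and 0 of the members. Its log2 fold change was -1.86 ± 1.05 with all replicates and -2.19 ± 0.43 without naive replicate 5 (edgeR adjusted p = 1.0 and 0.906). Icam1 averaged 30.6 ± 36.6 CPM in naive and 37.1 ± 7.52 CPM in SCVS replicates (0.24 ± 1.52). Il1b had no count in any replicate, and Sele never exceeded the floor.

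Fold changes had both signs among the clock genes, the family of Per1, and among immediate early genes, which transient stimuli induce. Of 12 clock genes 6 were positive and 6 negative, with a median at -0.0029. Clock, an activator of Per1, averaged 78.2 ± 43.7 CPM in naive and 119 ± 51.7 CPM in SCVS replicates (0.56 ± 0.55), and Nr1d1, the repressor REV-ERBα, 78.7 ± 48.6 and 98.7 ± 77.3 CPM (0.21 ± 0.68). Of 8 immediate early genes 2 were positive and 6 negative, with a median of -0.28. Fos averaged 277 ± 424 and 98.1 ± 103 CPM (-1.55 ± 1.15), and Egr1 140.1 ± 153 and 182 ± 163 CPM (0.25 ± 0.79). Naive replicate 1 was the highest naive replicate for Fos, Egr1 and Nr1d1.

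**Figure D4:**
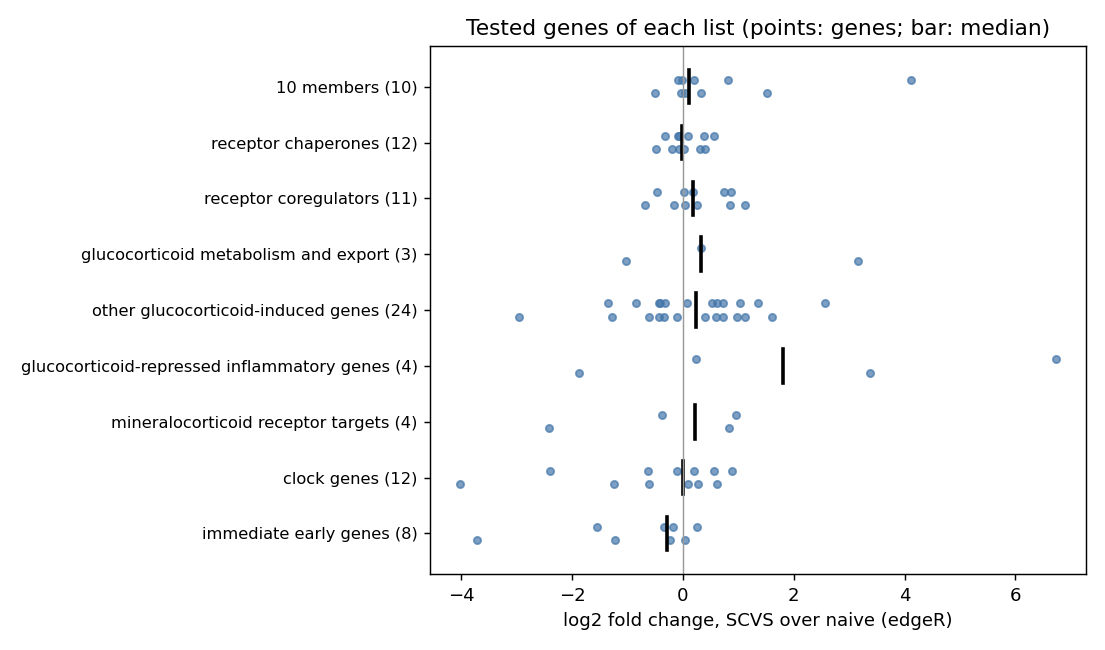
Log2 fold change of SCVS over naive in edgeR (horizontal axis, linear in log2 units) for the tested genes of each list, whose number stands in parentheses; points are genes and black bars medians. The chaperones lie close to 0 while the clock, inflammatory and induced genes scatter on both sides, and no point passed the adjusted p of 0.1.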

How the data were processed

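The authors amplified RNA of sorted meningeal LECs (Discover-sc WTA kit) and sequenced it on an Illumina instrument with paired reads. They deposited 1 table of raw counts per gene for 5 naive and 5 SCVS replicates, with no normalization. Per the submitters' processing notes the tools were cutadapt 1.9.1, HISAT2 2.0.1, HTSeq 0.6.1 and DESeq2. The study's methods name the mm9 genome and those notes name GRCm38, and the table holds no coordinates. Annotation, strand and the cohort of each replicate are not given in the sources used here. Amplified reads carry no molecular identifiers, so a floor of 3 counts covers counting error only.

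CPM were computed from column totals. The test took genes that exceeded 5 counts in 3 or more of the 10 replicates and used edgeR 4.0.16 (R 4.3.3, quasi-likelihood, TMM) and Benjamini-Hochberg adjustment over all of them, at a threshold of 0.1. A standard error is the fold change divided by the square root of F. Differences in mean CPM were tested by exact permutation (two-sided). Alternatives were DESeq2 1.42.0, limma 3.58.1 with voom and quality weights, other scalings, filters and log scales, a block for the replicate number and each replicate left out. DESeq2 with each replicate left out was added after seeing the data. Scripts were tested on simulated data, where recovery of planted changes was required only at a low spread between replicates. Recovery at the spread of the real genes is not reported here. Coordinates and exon lengths are from mm9 (GENCODE M1), promoters from RefSeq (GRCm38.p6), read only as sequence beside gene names.

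The members and lists were chosen with earlier results of these data known. Named were all members, the 3 genes most correlated with Nr3c1 and, from each pathway list, the 2 genes with the highest mean CPM and any gene called by edgeR or DESeq2 or with groups that did not overlap, of which there was none. The values of 1 gene under this rule are not reported here. Python 3.11.15 with NumPy 2.4.6, SciPy 1.17.1, pandas 2.3.3 and Matplotlib 3.10.9 was used.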

Additional observations from a re-analysis of the deposited data

Results flagged for a closer look

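Single replicates that lay far from the rest of their group were found by Dixon's criterion, in which the gap of the highest or lowest of 5 replicates to its neighbor exceeds the 95% critical share of the group's range. Of 52 groups (26 named genes, naive and SCVS) 10 held such a replicate. The rate of 1 in 20 set by the criterion assumes normally distributed, independent values. CPM of genes from the same libraries need not meet this, so the count is a description only. Among the members these were Nr3c2 in SCVS replicate 3 at 198 CPM with its neighbor at 58.5, Hsd11b1 in naive replicate 2 at 21.2 CPM with its neighbor at 0.096, and Zbtb16 in SCVS replicate 2 at 24.0 CPM with its neighbor at 0.243. Among the other genes they were Ncoa3 in naive replicate 3 at 289.6 CPM, H6pd in naive replicate 4 at 36.5 CPM and in SCVS replicate 4 at 61.0 CPM, Nr1d1 in naive replicate 1 at 162 CPM, Egr1 in naive replicate 1 at 402 CPM, and Fos in naive replicate 1 at 1011 CPM and in SCVS replicate 5 at 279.8 CPM. Naive replicate 1 thus accounted for 3 of the 10.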

How the results depend on the processing

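The number of genes called was 0 in edgeR under every scaling, filter and left-out replicate tried, 114 in DESeq2 and 3 in limma. No member was called by edgeR, DESeq2 or limma with all replicates. With 1 replicate left out, 0 to 1 members were called by DESeq2 (Hsd11b1 without naive replicate 2), 0 to 1 had groups that did not overlap (Hsd11b1 without SCVS replicate 3), and 0 to 1 had an exact permutation p under 0.05, beside 0.688% to 1.51%, 1.14% to 1.36% and 3.58% to 4.46% of all genes tested. On the log2(CPM + 0.1) scale 0 members did, with an exact permutation p of 0.0556 for Hsd11b1. A replicate block (numbers as pairs) called 0 genes. Each number names pools of different animals in the groups, and the correlations of deviations within a number were 0.040, 0.052, -0.011, 0.050 and 0.137, so the numbers were not taken as pairs.

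Of 169 alternative fold changes of the members 25 changed sign, and Nr3c2, Hsd11b1, Per1 and Dusp1 never did. Of 272 for the other 16 named genes 14 did. With 1 replicate left out, the edgeR log2 fold change ran from -0.31 to 0.11 for Nr3c1, -0.97 to 0.054 for Fkbp5, -0.21 to 0.43 for Tsc22d3, -0.034 to 0.56 for Sgk1, -5.50 to 0.81 for Zbtb16, -0.22 to 0.20 for Klf9, -0.074 to 0.20 for Hspa8, -2.14 to 1.38 for H6pd, -0.079 to 1.10 for Icam1, -0.20 to 0.70 for Nr1d1, -2.46 to 0.085 for Fos and -0.31 to 1.22 for Egr1. Limma turned Klf9 (0.095), H6pd (-2.35) and Fos (0.19). Scaling by total counts turned Zbtb16 (0.13) and Klf9 (0.069). The replicate block turned Klf9 (0.0025), H6pd (-2.04), Nr1d1 (-0.020) and Fos (0.099). The difference in mean CPM ran from -28.7 to 14.8 for Nr3c1, -23.3 to 0.941 for Fkbp5, -61.9 to 150.3 for Tsc22d3, -4.38 to 2.38 for Zbtb16 and -16.9 to 23.9 for Klf9 with 1 replicate left out. On the log2(CPM + 1) and log2(CPM + 0.1) scales it turned for Fkbp5 (0.195 and 0.493) and Zbtb16 (-0.66 and -1.78), and with TMM-scaled CPM for Zbtb16 (-0.125) and Klf9 (-1.39). The cause of these turns was not tested. None was past the threshold. Zbtb16 and Hsd11b1 each had at most 3 counts in 5 of 10 replicates. The value of -5.50 for Zbtb16, fitted against SCVS libraries at or under 3 counts, is no bound.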
